A study of Mus musculus with 22 samples.

Results

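The genes described here are 7 core pluripotency genes of mouse embryonic stem cells, out of 55487 genes listed in the deposited tables: Pou5f1, Sox2, Sall4, Utf1, Lin28a, Dppa5a and Fgf4. They were chosen by symbol for a contrast already seen in these data, Pou5f1 being kept while Sox2 was lower across the groups, so the levels of the members in every group were part of the choice. Their values are therefore given as a description with no p; how many of them pass the rule used to call other genes is counted once, beside the share of all genes that pass, and supports nothing. All 7 passed the filter on low values (at least 10 normalised reads in at least 2 libraries) in both tables.

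The cells were Dux-/- mouse embryonic stem cells kept in 2iLIF medium, a serum-free mixture of kinase inhibitors and LIF that holds the cells in a naive state. Every group, the control included, lacked Dux and received 0.25 ug/mL doxycycline for 12 hours, 24 hours after plating. The cells then carried mCherry, a red fluorescent protein, alone (group mCherry), mCherry joined to full-length DUX (FL), or mCherry joined to a DUX derivative: C1+14, C1C3a, C3+14, C1C3c, C1C3b, C12345delt14, deltC12345+14 or deltC12345delt14. DUX, a transcription factor with a pair of homeodomains, activates genes that are normally on in the 2-cell embryo. The labels do not spell out the parts of the derivative names or what distinguishes a, b and c, and do not say whether a line is a single clone or a pool; the group C3delt14 was not analysed here. Each of the 10 groups had 2 replicates, which the labels do not tie to separate cultures, so errors measure only the spread between these samples.

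Poly(A) RNA was counted per gene and scaled by the authors in 2 separate tables, and a level below is a normalised read count: reads divided by 1 size factor per library. The chimera table holds 14 libraries (mCherry, FL, C1+14, C1C3a, C3+14, C1C3c and C1C3b), and the deletion table holds 8 (the same FL libraries, C12345delt14, deltC12345+14 and deltC12345delt14). Library totals ran from 21059953 to 40448890 reads. The libraries are of 2 kinds by how many of their reads fall in 1634 high-copy genes: 0.295% to 0.421% in C3+14, mCherry, replicate 2 of deltC12345+14 and replicate 1 of deltC12345delt14, and 1.66% to 2.57% in all others. Except for C3+14, a construct and its kind of library cannot be told apart in a comparison with mCherry. The libraries of C1+14 are of the second kind, so counts of genes for FL against C1+14 are given as well. Only some single genes have a value against C1+14 below. For the others, the values printed against mCherry leave the construct and the kind of library confounded, except for C3+14. FL, C1C3a, C1C3b and C1C3c could be compared with C1+14 for those genes too. Within the 2 groups that hold both kinds, the kinds differed in Pou5f1 by 0.24 and 0.25 log2 units, in Sox2 by 0.55 and -0.06, in Fgf4 by 0.34 and 0.11 and in Lin28a by -1.15 and 0.47. Each value is 1 library against 1, so the kind and the ordinary difference between replicates cannot be told apart. Over all genes, the 95th percentile of the absolute difference was 2.00 and 1.89. All 8 stem cell markers checked (Pou5f1, Nanog, Zfp42, Esrrb, Klf4, Tfcp2l1, Tdgf1 and Dppa5a) were above the floor of 3 reads in every group. Their summed level was not equal between groups: it was 105360 and 103409 normalised reads with mCherry. In the construct libraries of the chimera table it ran from 49108 (C1C3b replicate 2) to 91813 (FL replicate 2). The deletion table ran from 88540 (FL replicate 1) to 145186 (deltC12345+14 replicate 1). The summed level of 7 fibroblast (feeder) markers was between 35.4 and 266 normalised reads. The Dux gene rows Duxf3 and Gm4981 held 0 reads in all 20 libraries, so neither the knockout nor the transgenes can be checked from them.

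OCT4, the POU-family protein of Pou5f1, and SOX2, an HMG-box protein, bind side by side at composite DNA elements and together switch on the genes that keep stem cells pluripotent, themselves included. Fgf4 and Utf1 are textbook targets of the pair, and the growth factor FGF4 is secreted by the cells and acts back on them through FGF receptors and the MAP kinase pathway. SALL4 is a zinc-finger protein that works with OCT4, UTF1 is a chromatin-associated protein, LIN28A is an RNA-binding protein that blocks the maturation of let-7 microRNAs, and DPPA5A is a KH-domain RNA-binding protein.

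The promoter windows of the pair at the centre of the contrast, and of Fgf4, the member with the widest range, are shown because the text turns on their contrast. They are the 250 bases before the RefSeq transcription start in the build GRCm38.p6, written 5′ to 3′, with matches to the searched motifs in capitals. The Pou5f1 window is chr17:35505782-35506031, the Sox2 window is chr3:34649745-34649994 and the Fgf4 window is chr7:144861136-144861385, all on the plus strand.
Pou5f1: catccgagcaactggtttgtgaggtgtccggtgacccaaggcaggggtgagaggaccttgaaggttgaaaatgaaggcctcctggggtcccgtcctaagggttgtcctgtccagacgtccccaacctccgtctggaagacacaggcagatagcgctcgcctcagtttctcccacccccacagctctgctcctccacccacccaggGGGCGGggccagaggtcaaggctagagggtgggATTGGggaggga
Sox2: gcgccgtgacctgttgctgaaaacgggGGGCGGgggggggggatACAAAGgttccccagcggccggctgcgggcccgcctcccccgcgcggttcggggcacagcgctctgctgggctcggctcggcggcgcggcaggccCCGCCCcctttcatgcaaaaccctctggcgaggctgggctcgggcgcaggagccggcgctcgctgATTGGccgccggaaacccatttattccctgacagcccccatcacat
Fgf4: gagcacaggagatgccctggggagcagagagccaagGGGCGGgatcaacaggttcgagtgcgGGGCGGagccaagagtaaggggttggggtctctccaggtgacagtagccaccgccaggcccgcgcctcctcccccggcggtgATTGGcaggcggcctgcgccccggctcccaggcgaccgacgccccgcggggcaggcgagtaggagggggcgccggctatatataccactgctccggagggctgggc
The motifs searched on both strands were the octamer ATGCAAAT, its looser form ATGCNAAT, the SOX site ACAAAG with its variant form ACAATG, the GC box GGGCGG, and the box named CCAAT; the looser form takes in the octamer. Capitals in the Pou5f1 window mark 1 GGGCGG and 1 CCAAT on the reverse strand. In the Sox2 window they mark 2 GGGCGG (1 on each strand), 1 ACAAAG and 1 CCAAT on the reverse strand, and in the Fgf4 window 2 GGGCGG and 1 CCAAT on the reverse strand. Of 32851 RefSeq windows of this length, 32.7% held GGGCGG, 33.8% CCAAT, 16.5% ACAAAG, 10.7% ACAATG and 1.60% the octamer, or 2.86% its looser form. None of the 3 windows printed held either form. A second Pou5f1 window, chr17:35508557-35508806, held 1 ACAATG and 1 CCAAT and is not shown. The table holds windows for 5 of the 7 members: those of Utf1 and Lin28a were searched too but are not shown, and Utf1 held 4 GGGCGG, while Lin28a held 1 ACAATG. Sall4 and Dppa5a have no entry.

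Pou5f1 (ENSMUSG00000024406, GRCm38 chr17:35506018-35510772, plus strand) was abundant in every library. Its level was 12414 and 12697 normalised reads with mCherry alone and 19308 and 20815 with FL. With the other constructs it was 14877 and 19872 (C1C3a), 14117 and 12735 (C3+14), 14155 and 12594 (C1C3b), 9781 and 11357 (C1+14) and 10579 and 8350 (C1C3c). FL and C1C3a stood highest and overlapped, C3+14, C1C3b and mCherry formed the middle, and C1+14 and C1C3c lay below every mCherry library. The log2 difference from mCherry was 0.68 for FL, 0.45 for C1C3a, 0.09 for C3+14 and for C1C3b, -0.25 for C1+14 and -0.42 for C1C3c, each with an SE of 0.15. The direction of Pou5f1 depends on the scaling: under quantile normalization the values were -0.43 for FL, -0.57 for C1C3a, -0.69 for C3+14 and -0.10 for C1C3b, while C1+14 and C1C3c stayed below mCherry at -0.11 and -0.28.

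Sox2 (ENSMUSG00000074637, chr3:34650405-34652461, plus strand, a single exon inside an intron of the long noncoding RNA Sox2ot) was highest with mCherry alone, at 4962 and 4866 normalised reads. It was 463 and 1039 with FL, 744 and 654 with C1C3b and 1183 and 1037 with C3+14. It was 1777 and 1990 with C1C3a, 2885 and 2006 with C1C3c and 2744 and 2549 with C1+14. No library with a construct reached the mCherry libraries, while FL overlapped with both C1C3b and C3+14, and C1C3c overlapped with C1+14. On the log2 scale the difference from mCherry was -2.82 for FL, -2.81 for C1C3b, -2.15 for C3+14, -1.39 for C1C3a, -1.03 for C1C3c and -0.89 for C1+14 (SE 0.28 each). As a ratio of means, mCherry held 6.54 times the Sox2 of FL, 7.03 times that of C1C3b and 1.86 times that of C1+14. The same sign was found under every alternative for these 6 comparisons, and against C1+14 the differences were -1.93 for FL, -1.92 for C1C3b and -0.49 for C1C3a.

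**Figure D1:**
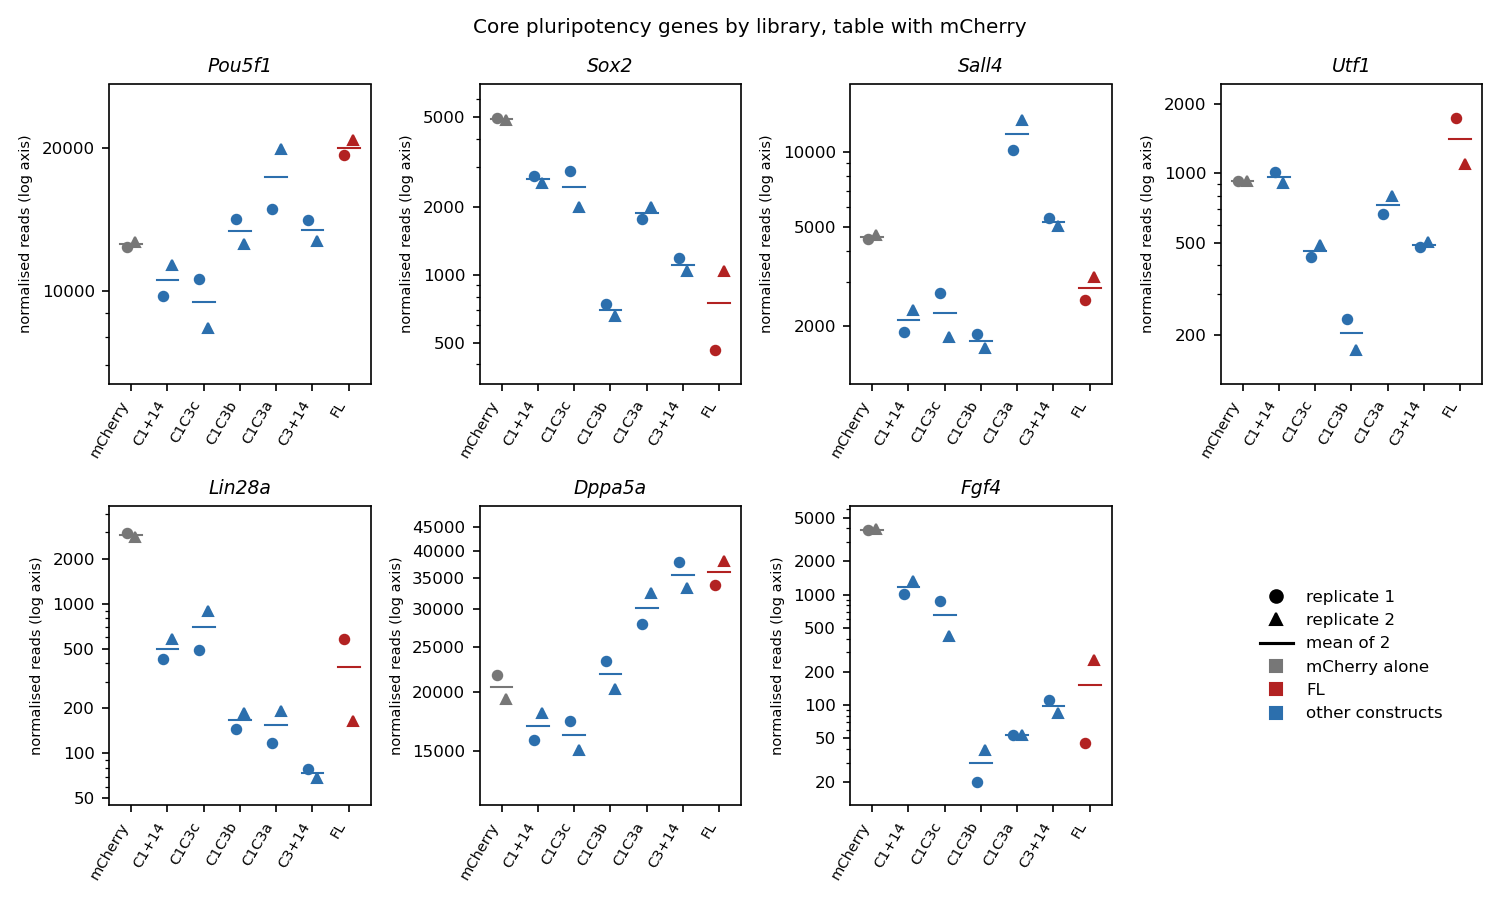
Levels of the 7 genes in the 14 libraries of the chimera table: normalised reads on a log axis, 1 panel per gene, circles and triangles for replicates 1 and 2 and a line for their mean. In the Sox2, Lin28a and Fgf4 panels every construct library lies below the mCherry libraries (grey), while in the Pou5f1 panel FL (red) lies above them.

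Because both genes are read from the same library, the ratio of Pou5f1 reads to Sox2 reads does not depend on the size factor and can be set side by side across the tables. It was 2.50 and 2.61 with mCherry alone and 41.7 and 20.03 with FL. It was 19.0 and 19.2 with C1C3b, 11.9 and 12.3 with C3+14 and 8.37 and 9.98 with C1C3a. C1+14 gave 3.56 and 4.46 and C1C3c 3.67 and 4.16. Relative to mCherry the geometric mean ratio was 11.3-fold in FL, 7.49-fold in C1C3b, 4.74-fold in C3+14 and 3.58-fold in C1C3a, and 1.56-fold and 1.53-fold in C1+14 and C1C3c. In the deletion table the ratio was 9.30 and 4.26 with C12345delt14, 2.23 and 2.76 with deltC12345+14 and 2.03 and 2.52 with deltC12345delt14. Both groups that lack C12345 therefore overlapped with mCherry in this ratio, and C12345delt14 lay between them and FL, with a spread of 0.80 log2 units (SD, n = 2) that was about as wide as that of FL (0.75). All 10 groups were part of the choice of the genes, so the order is a description. With 2 libraries against 2, an exact permutation test could not give a p below 0.333.

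**Figure D2:**
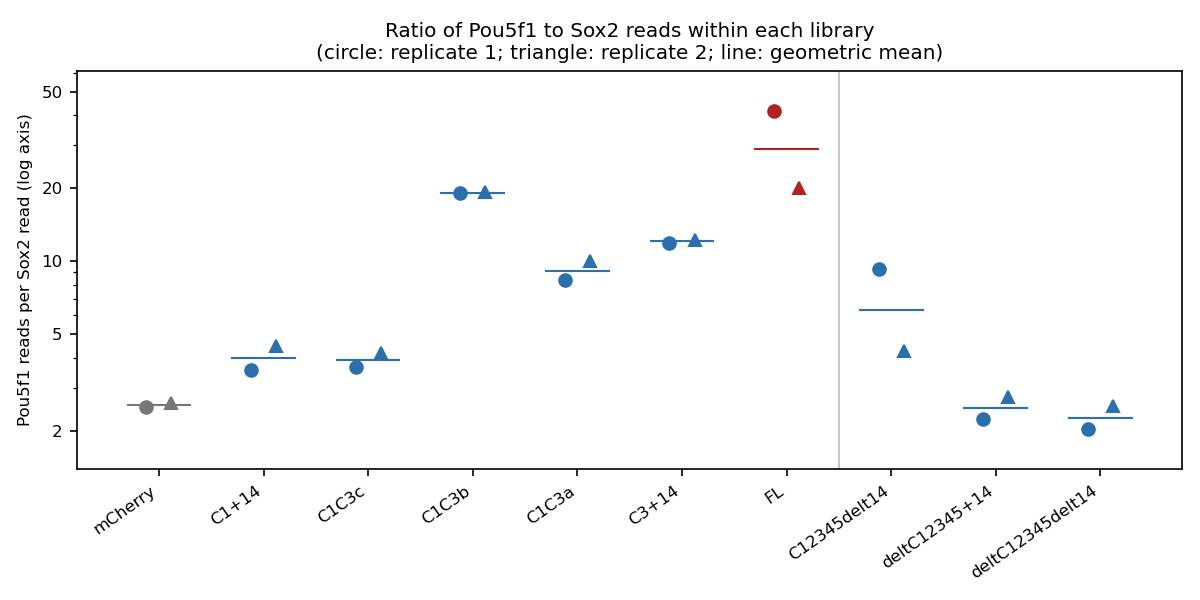
Pou5f1 reads per Sox2 read within each library, on a log axis; circles and triangles are replicates 1 and 2, lines are geometric means, and the grey vertical line separates the chimera table from the deletion constructs. The ratio runs from 2.03 in deltC12345delt14 replicate 1 to 41.7 in FL replicate 1, and the 2 FL libraries differ from each other by more than the 2 of C1C3b.

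Fgf4 (ENSMUSG00000050917, chr7:144847367-144865243, plus strand) spanned the widest range of the 7. It held 3858 and 3911 normalised reads with mCherry, 1008 and 1343 with C1+14 and 877 and 424 with C1C3c. With FL it held 45.7 and 256, with C3+14 112 and 84.2, with C1C3a 53.1 and 53.8 and with C1C3b 20.2 and 39.4. Each of the 6 construct groups lay wholly below mCherry, and C1+14 and C1C3c formed an intermediate pair above the remaining 4. The log2 difference from mCherry was -7.05 for C1C3b, -6.16 for C1C3a, -5.31 for C3+14, -5.15 for FL, -2.67 for C1C3c and -1.74 for C1+14 (SE 0.59 each). The FL value rests on replicates that differ, and was -6.38 without FL replicate 2 and -3.92 without FL replicate 1. Against C1+14 the differences were -3.41 for FL, -4.42 for C1C3a and -5.31 for C1C3b.

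Lin28a (ENSMUSG00000050966, chr4:134003330-134018841, minus strand) held 2976 and 2784 normalised reads with mCherry. C3+14 gave the lowest levels, 78.7 and 68.0, followed by C1C3a at 117 and 191 and C1C3b at 146 and 186. It was 585 and 165 with FL, 425 and 578 with C1+14 and 488 and 900 with C1C3c. All constructs were again below mCherry, but the order differed from that of Sox2, where FL and C1C3b, which overlapped, had the lowest levels and not C3+14. The log2 differences from mCherry were -5.28 for C3+14, -4.26 for C1C3a, -4.12 for C1C3b, -3.20 for FL, -2.54 for C1+14 and -2.12 for C1C3c (SE 0.46 each). The FL difference was -2.30 without FL replicate 2 and -4.11 without FL replicate 1. The FL replicates differed so widely that FL overlapped with C1+14 and with C1C3b, and against C1+14 the sign for FL changed from -0.67 to 0.24 without FL replicate 2.

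Sall4 (ENSMUSG00000027547, chr2:168748332-168767943, minus strand) had constructs on both sides of mCherry. It was 4469 and 4643 with mCherry, 10246 and 13467 with C1C3a and 5420 and 5026 with C3+14. It was 2543 and 3135 with FL, 2708 and 1811 with C1C3c, 1882 and 2324 with C1+14 and 1850 and 1626 with C1C3b. The log2 differences were 1.37 for C1C3a, 0.20 for C3+14 (-0.22 under quantile normalization), -0.69 for FL, -1.04 for C1C3c, -1.12 for C1+14 and -1.39 for C1C3b (SE 0.19 each). The C1C3a difference was 0.73 under quantile normalization, and 2.49 against C1+14 as deposited.

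Utf1 (ENSMUSG00000047751, chr7:139943789-139945112, plus strand) was 928 and 926 with mCherry and 1734 and 1099 with FL. The lowest levels were those of C1C3b, 234 and 172. C3+14 gave 478 and 505, C1C3c 435 and 491, C1C3a 666 and 798 and C1+14 1012 and 913, the last overlapping with mCherry. The log2 differences from mCherry ran from 0.57 for FL to -2.20 for C1C3b (SE 0.21), and the latter was -2.26 against C1+14.

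Dppa5a (ENSMUSG00000060461, chr9:78367052-78368177, minus strand) had, like Pou5f1, its highest mean with FL and its lowest with C1C3c. Its level was 21712 and 19331 with mCherry, 33862 and 38055 with FL and 37768 and 33245 with C3+14. C1C3a gave 27915 and 32505, C1C3b 23344 and 20318, C1+14 15789 and 18054 and C1C3c 17346 and 15030. The log2 difference from mCherry was 0.81 for FL, 0.79 for C3+14 and 0.56 for C1C3a (SE 0.13), but -0.50, -0.29 and -0.64 under quantile normalization. Of its 50-base stretches, 39.1% occur in other genes of the annotation, so its level is uncertain wherever the counting could split such reads; for Pou5f1 the share is 0.595%.

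**Figure D3:**
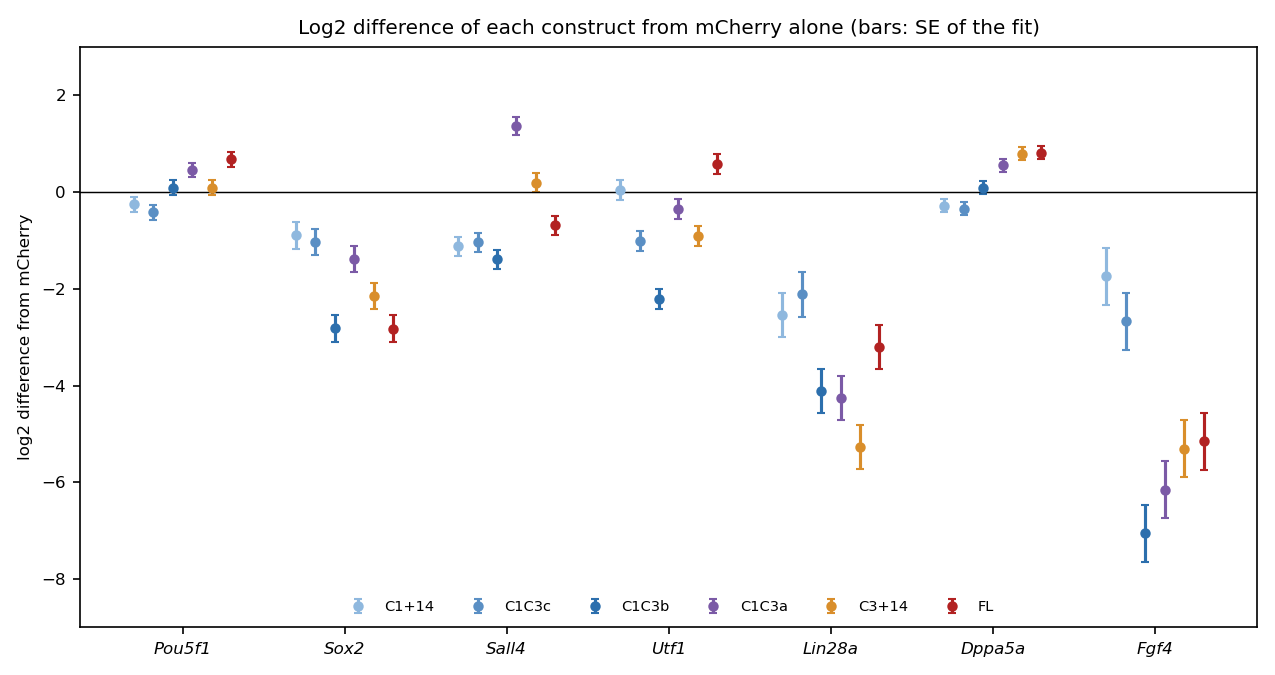
Log2 difference of each of the 6 constructs of the chimera table from mCherry (limma on log2 of the normalised value + 1), 7 genes on the x axis, points with bars of 1 SE. Sox2, Lin28a and Fgf4 lie below 0 for all 6 constructs, and Pou5f1 and Dppa5a stay within 1 unit of 0.

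Per kilobase of exon, the members ranked with mCherry as Dppa5a (33153 normalised reads per kb), Pou5f1 (5585), Sox2 (2389), Fgf4 (1216), Sall4 (823), Utf1 (755) and Lin28a (721). With FL, Dppa5a (58092) and Pou5f1 (8924) stayed at the head and were followed by Utf1 (1154), Sall4 (513), Sox2 (365), Lin28a (93.9) and Fgf4 (47.2). Sox2 thus held the third place with mCherry and the fifth with FL, where its replicates were 225 and 505 normalised reads per kb.

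A gene is called when limma gives it a log2 difference of at least 1 in size and a p under 0.05 after Benjamini-Hochberg adjustment over all genes. By this rule 3 of the 7 members were lower with FL than with mCherry (Sox2, Lin28a and Fgf4) and 0 higher, beside 19.6% of all 21584 genes called lower and 24.5% called higher. For C3+14 the count was 3 lower and 0 higher, beside 17.7% and 29.6% of all genes. For C1C3a it was 3 lower and 1 higher, beside 19.0% and 27.4%. It was 5 lower and 0 higher both for C1C3b, beside 17.1% and 27.6%, and for C1C3c, beside 10.5% and 18.3%. For C1+14 it was 3 lower and 0 higher, beside 5.95% and 12.4%. Against C1+14, 2 were lower and 1 higher both for FL, beside 18.4% and 21.5%, and for C1C3a, beside 17.3% and 23.4%. For C1C3b 4 were lower and 0 higher, beside 11.0% and 17.9%, and for C1C3c 1 was lower and 0 higher, beside 2.46% and 5.37%. These contrasts were used to choose the members, so nothing is read from the counts. The median log2 difference of the 7 members from mCherry ran from -2.20 in C1C3b to -0.35 in C1C3a, beside medians of all genes between 0 and 0.23. All these comparisons share the mCherry libraries.

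The deletion table sets FL against the same protein without the 14 part, without the C12345 part, and without both. Sox2 was 569 and 1300 with FL, 2555 and 5400 with C12345delt14, 8424 and 5761 with deltC12345+14 and 7999 and 7649 with deltC12345delt14. Fgf4 was 56.2 and 320 with FL, 458 and 1512 with C12345delt14, 4812 and 3812 with deltC12345+14 and 4947 and 5355 with deltC12345delt14. For both genes the groups without C12345 stood highest, C12345delt14 stood between, and FL lay below every other library. Against FL, the log2 differences of Sox2 were 2.11, 3.02 and 3.18 for C12345delt14, deltC12345+14 and deltC12345delt14 (SE 0.44), and those of Fgf4 were 2.62, 4.98 and 5.25 (SE 0.78). They depend on FL replicates that differ: without FL replicate 1 the Sox2 values were 1.51, 2.42 and 2.59 and those of Fgf4 1.38, 3.74 and 4.003. Without FL replicate 2 they were 2.70, 3.61 and 3.78 for Sox2 and 3.87, 6.23 and 6.49 for Fgf4.

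Pou5f1 was 23748 and 26037 with FL, 23758 and 23025 with C12345delt14, 18753 and 15886 with deltC12345+14 and 16202 and 19274 with deltC12345delt14. The differences from FL were -0.09, -0.53 and -0.49 (SE 0.15), and 0.31, 0.69 and 0.65 under quantile normalization. Dppa5a again lay beside it, at 41648 and 47602, 43086 and 35551, 28199 and 24830, and 27408 and 26603 in the same order of groups, with differences of -0.19, -0.75 and -0.72 (SE 0.16) that were 0.25, 0.63 and 0.61 under quantile normalization. Lin28a was 719 and 207 with FL, 165 and 280 with C12345delt14, 579 and 1286 with deltC12345+14 and 1182 and 1641 with deltC12345delt14. C12345delt14 overlapped with FL and had the lowest Lin28a mean of the 4 groups, although its Sox2 lay above that of FL. The Lin28a difference of deltC12345delt14 from FL was 1.85 (SE 0.60), 2.74 without FL replicate 1 and 0.95 without FL replicate 2.

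Sall4 was highest with C12345delt14, at 5163 and 6446, beside 3128 and 3922 with FL, 3797 and 3401 with deltC12345+14 and 3775 and 4134 with deltC12345delt14. Utf1 was lowest there, at 684 and 917, beside 2133 and 1374, 1426 and 1519, and 1530 and 1575. C12345delt14 thus lay outside the range of the other libraries for these 2 genes. Of the 7 members, 0 were called for C12345delt14 against FL, beside 0.62% of 19833 genes called lower and 0.338% called higher. For deltC12345+14 against FL 2 were higher and 0 lower, beside 18.4% and 20.0% of all genes, and for deltC12345delt14 against FL 3 were higher and 0 lower, beside 18.8% and 20.3%. Between deltC12345+14 and deltC12345delt14, and for the interaction of the 2 parts, 0 members and 0.0% of all genes were called by limma. At an unadjusted p under 0.05 there were 543 and 2748 genes, edgeR called 0 in both, and DESeq2 called 4 and 146.

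**Figure D4:**
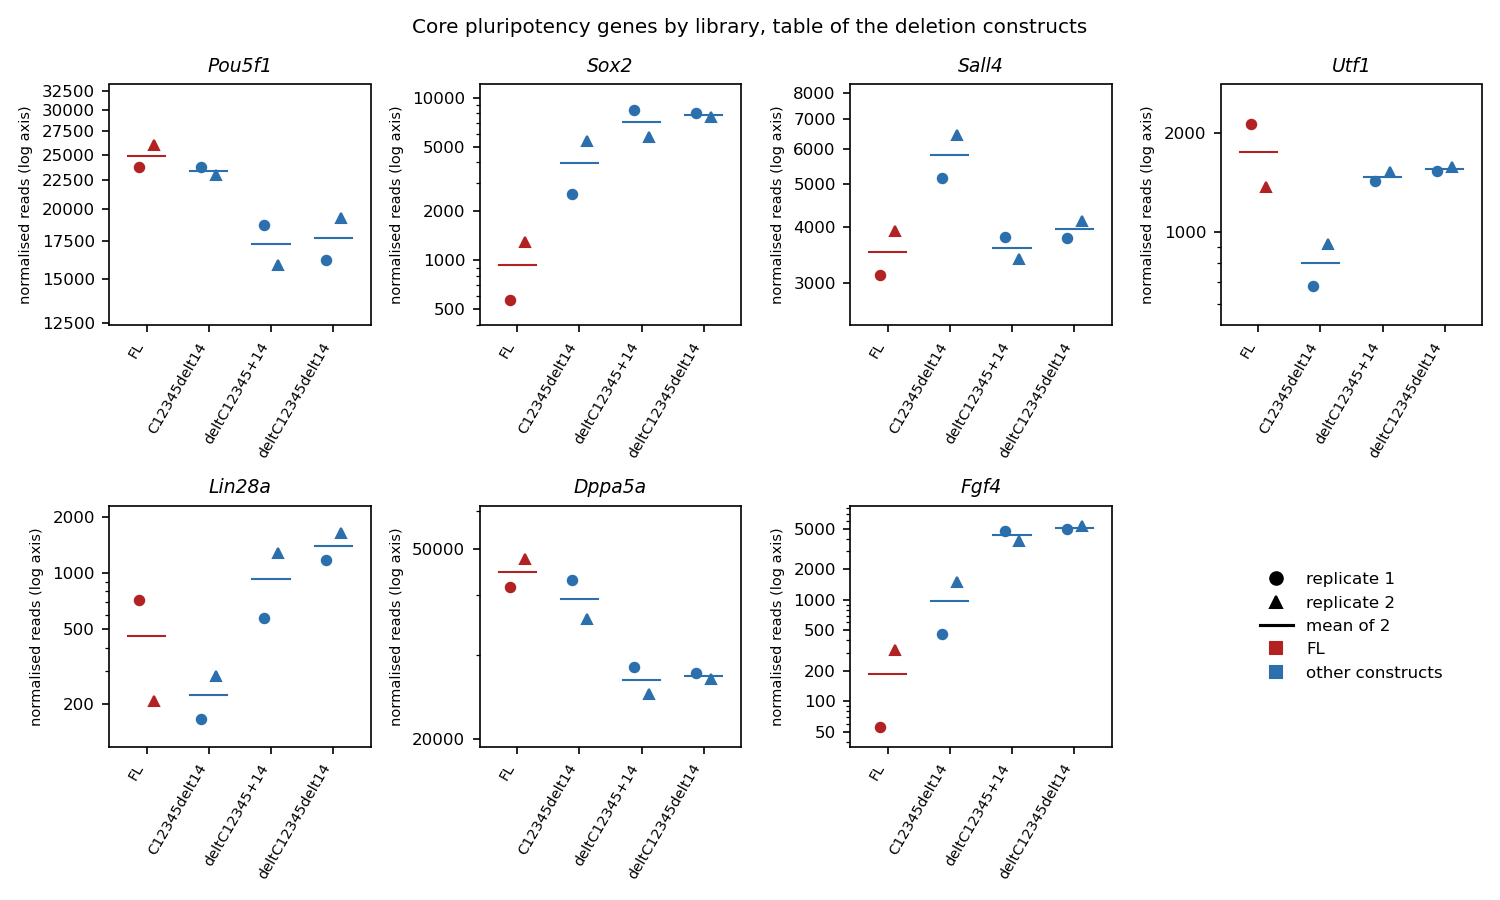
Levels of the 7 genes in the 8 libraries of the deletion table: normalised reads on a log axis, replicates as circles and triangles, means as lines, FL in red. Sox2 and Fgf4 are lowest with FL, intermediate with C12345delt14 and highest with the 2 groups without C12345.

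The summed level of 6 markers of the 2-cell-like state (Zscan4c, Zscan4d, Zfp352, Tcstv1, Tcstv3 and Usp17lc, several of them multi-copy) was 1355140 and 725112 normalised reads with FL, 724971 and 792252 with C3+14 and 323957 and 476214 with C1C3a. It was 18930 and 13384 with C1C3b, 897 and 823 with C1C3c, 10.96 and 4.96 with C1+14 and below 1 in both mCherry libraries. All 6 are at or under the floor of 3 reads with mCherry and deltC12345+14, and 5 of 6 with deltC12345delt14. C1C3b therefore had Sox2 and Fgf4 levels as low as those of FL with a far lower sum of 2-cell-like markers. In the deletion table the sum was 546813 and 346034 with C12345delt14, whose Sox2 was above that of FL, and 1666710 and 907010 with FL. The part of these markers in the members' levels was not tested. Fewer cells of a type and less RNA per cell cannot be told apart in these bulk samples.

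Genes outside the 7, in lists of partners, targets, paralogs and pathways, could be tested. Of 105 such genes tested in the chimera table, 41 were lower and 12 higher with FL than with mCherry, beside 19.6% and 24.5% of all genes; the median log2 difference was -0.47, beside 0.09 over all genes. Against C1+14, 39 were lower and 10 higher with FL, beside 18.4% and 21.5%, with a median of -0.69 beside 0.06. As for the members, these are counts beside a background and set no list apart from other genes. Named genes below are compared with mCherry unless another group is given. Lower and higher counts against mCherry were 31 and 19 for C3+14 (17.7% and 29.6% of all genes) and 21 and 19 for C1C3a (19.0% and 27.4%). They were 35 and 23 for C1C3b (17.1% and 27.6%), 6 and 11 for C1+14 (5.95% and 12.4%) and 17 and 14 for C1C3c (10.5% and 18.3%). Of 96 tested in the deletion table, 35 were higher and 6 lower with deltC12345+14 than with FL (18.4% and 20.0% of all genes), 35 and 7 with deltC12345delt14 (18.8% and 20.3%), and 2 and 0 with C12345delt14 (0.338% and 0.62%; Nodal and Pou2f2, the latter named after its value was seen and its call lost under 9 of 14 alternatives). The lists were drawn up with earlier results of these data known, and genes of a list are not independent replicates.

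Among the 16 tested SOX paralogs, 5 fell and 4 rose with FL against mCherry (limma, adjusted p over all genes), beside 19.6% of all genes lower and 24.5% higher. The list's median log2 difference was -0.36, beside 0.09. Against C1+14, 7 fell and 2 rose with FL, beside 18.4% and 21.5%, with a median of -1.39 beside 0.06. Medians of the other constructs against mCherry were above 0, from 0.47 in C1C3c to 1.39 in C1C3b. Sox3 (ENSMUSG00000045179, chrX:60891366-60893430, minus strand), which with Sox1 and Sox2 makes up the SOXB1 group, lay on the other side of mCherry from Sox2. It was 36.3 and 34.3 normalised reads with mCherry, 492 and 419 with FL, 772 and 734 with C3+14, 1035 and 917 with C1C3a and 805 and 919 with C1C3b. C1C3c gave 259 and 285 and C1+14 165 and 163, so no construct library overlapped with mCherry. The FL difference was 3.65 (SE 0.16, adjusted p = 4.4e-10 by limma), and Sox3 also rose with each of the other 5 constructs, by 2.19 in C1+14 (adjusted p = 7.95e-07) to 4.75 in C1C3a (adjusted p = 2.62e-11). Between libraries of 1 kind, FL exceeded C1+14 by 1.46 (adjusted p = 5.76e-06). It was 605 and 524 with FL in the deletion table, 677 and 720 with C12345delt14, 135 and 89.1 with deltC12345+14 and 89.5 and 174 with deltC12345delt14, and fell by 2.35 and by 2.16 in the last 2 against FL (adjusted p = 0.00121 and 0.00155). Per kilobase of exon, Sox3 was at 17.6 and 16.6 normalised reads with mCherry, beside 2412 and 2366 for Sox2. With C1C3b it was at 390 and 445, above the 362 and 318 of Sox2, and with FL at 238 and 203, beside 225 and 505.

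Sox1 and Sox21, a family member that is itself a SOX2 target, fell with FL, by 3.75 (SE 0.99, adjusted p = 0.00511) and by 3.28 (SE 0.85, adjusted p = 0.0045). Sox1 was 73.9 and 59.2 normalised reads with mCherry and 0 and 23.8 with FL; Sox21 was 82.5 and 74.6, and 1.47 and 26.2. Both depend on FL replicate 1: without it the differences were -1.44 for Sox1 and -1.55 for Sox21, the latter no longer called, and neither gene was called in a fit of the 2 groups alone. Sox17, an endoderm gene, rose with FL by 2.65 (SE 0.52, adjusted p = 0.000695), from 6.60 and 7.72 to 72.2 and 34.5, and rose with all 5 other constructs, at most by 4.52 in C1C3b. The summed level of the 6 primitive endoderm markers, Sox17 among them, was 68.6 and 78.9 with mCherry, 92.8 and 121 with FL and 186 to 648 with the other constructs of the table; its part in the Sox17 values was not tested. The long noncoding RNA Sox2ot, whose intron holds Sox2, fell with FL by 3.53 (SE 0.45, adjusted p = 1.66e-05), from 42.9 and 54.0 to 2.95 and 3.57. It fell with C3+14, C1C3a and C1C3b too, the C3+14 call being lost without C3+14 replicate 1 (-1.05) or mCherry replicate 2 (-1.17), and rose by 2.87 and 2.63 with deltC12345+14 and deltC12345delt14 against FL (adjusted p = 0.00217 and 0.00304). Sox2ot lies on the strand of Sox2, so reads from the Sox2ot intron would count for Sox2 even with strand used, and its reads were at most 65 in any library.

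**Figure D5:**
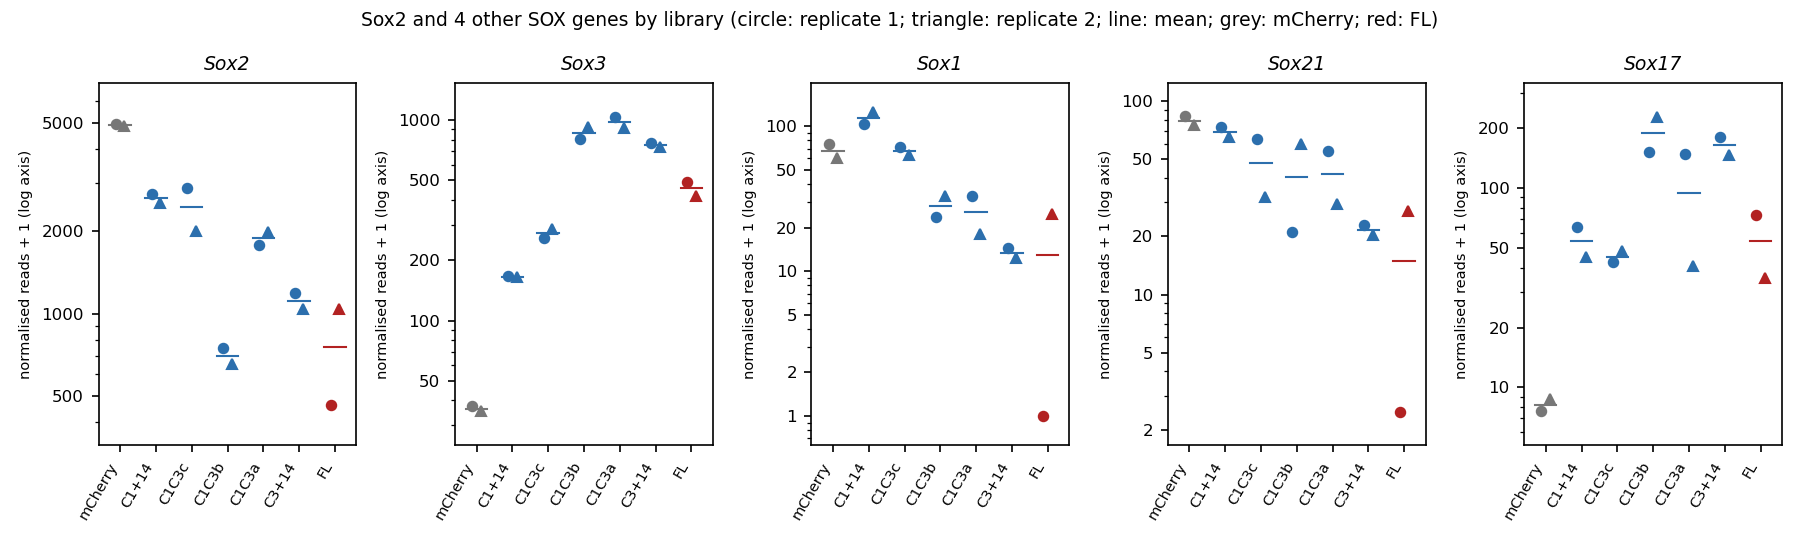
Normalised reads + 1 on a log axis in the 14 libraries of the chimera table for Sox2, Sox3, Sox1, Sox21 and Sox17, replicates as circles and triangles and means as lines. Sox3 and Sox17 lie above mCherry (grey) in every construct library, and Sox2 below it.

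Among the 13 tested POU paralogs, 6 fell and 1 rose with FL against mCherry, beside 19.6% and 24.5% of all genes. Their median difference was -1.27, beside 0.09. Against C1+14, 7 fell and 1 rose with FL, beside 18.4% and 21.5%, with a median of -1.55. Medians of the other constructs against mCherry ran from -0.05 in C1+14 to 1.78 in C1C3b. With C1C3b, 3 fell and 8 rose, beside 17.1% and 27.6% of all genes. Pou4f2 fell by 4.10 with FL (adjusted p = 9.68e-08), from 127 and 133 to 7.37 and 5.95, but rose with C1C3a by 1.18 (adjusted p = 0.004), to 262 and 331. Pou2f3 fell by 1.95 with FL (adjusted p = 0.005), a call lost without FL replicate 1 (-1.24), and fell by 3.68 with C1C3b (adjusted p = 4.3e-05). All 3 paralogs of Sall4 fell with FL against mCherry, beside 19.6% of all genes, and all 3 fell against C1+14, beside 18.4%. Sall3 fell by 3.38 (SE 0.20, adjusted p = 1.07e-08), from 845 and 792 to 63.4 and 95.2, while with C3+14 it was 958 and 983 and did not pass the test. Sall1 fell by 2.30 (adjusted p = 7.47e-06), from 2729 and 2636 to 514 and 579, and fell with C3+14, C1C3a, C1C3b and C1C3c too, by 2.29, 2.09, 2.47 and 1.40; the C1C3c call was lost without C1C3c replicate 2 (-0.83).

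Of 20 proteins known to bind with OCT4 in stem cells, 9 fell and 2 rose with FL against mCherry, beside 19.6% and 24.5% of all genes. Their median difference was -0.52, beside 0.09. Against C1+14, 5 fell and 2 rose with FL, beside 18.4% and 21.5%, and the median was 0.20, beside 0.06. The sign of the median thus depends on the reference group. Medians of the other constructs against mCherry ran from -0.56 in C1C3c to 0.08 in C1C3a. Esrrb, an orphan nuclear receptor of the naive state, fell by 2.50 (SE 0.25, adjusted p = 1.89e-06), from 13469 and 13881 normalised reads to 2032 and 2871. It fell furthest with C1C3b, by 3.53. Klf4, a zinc-finger reprogramming factor, fell by 2.81 with FL (SE 0.36, adjusted p = 1.8e-05), from 3203 and 3108 to 276 and 736, and was -2.10 without FL replicate 1 and -3.51 without FL replicate 2. With the other constructs it did not pass, at -0.97 for C1+14 and -0.96 for C1C3c, just short of the fold asked for, and at -0.42 for C1C3b, -0.18 for C3+14 and -0.03 for C1C3a; the C1C3c value passed without C1C3c replicate 1 (-1.47). Against C1+14, Klf4 fell by 1.84 with FL (adjusted p = 0.000714), a difference of -1.13 without FL replicate 1 and of -2.54 without FL replicate 2. Parp1, a DNA repair enzyme, rose by 1.19 with FL (adjusted p = 2.27e-06), but by 0.12 under quantile normalization. Trim28, a corepressor of retroviral elements, was higher with FL by 1.09 (adjusted p = 1.4e-05), but -0.18 under quantile normalization.

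Of 15 known OCT4-SOX2 targets, 5 fell and 1 rose with FL against mCherry, beside 19.6% and 24.5% of all genes. Their median difference was -0.46, beside 0.09. Against C1+14, 3 fell and 2 rose with FL, beside 18.4% and 21.5%, with a median of -0.25 beside 0.06. With the other constructs, medians against mCherry ran from -1.51 in C1C3b to -0.31 in C1C3c. In C1C3b 8 fell and 0 rose against mCherry, beside 17.1% and 27.6% of all genes. There 7 fell and 0 rose against C1+14, beside 11.0% and 17.9%, with a median of -0.78. Nodal, a TGF-beta family ligand, fell by 4.60 (SE 0.26, adjusted p = 7.58e-09), from 1483 and 1462 normalised reads to 42.7 and 83.3. It was 442 and 392 with C3+14, 821 and 589 with C1C3a and 256 and 275 with C1C3b, all called lower, the C1C3a call being lost without C1C3a replicate 2. In the deletion table it rose with C12345delt14 against FL by 2.54 (SE 0.40, adjusted p = 0.045), from 52.6 and 104 to 309 and 612, a call lost when any of 3 of the 4 libraries was left out. Lefty1, an inhibitor of Nodal, fell by 3.16 with FL (adjusted p = 0.000293) but rose with C1+14 by 3.23 (adjusted p = 0.000948) and with C1C3c by 3.46 (adjusted p = 0.000295). Its levels were 87.8 and 63.5 with mCherry, 14.7 and 3.57 with FL, 657 and 763 with C1+14 and 860 and 799 with C1C3c, and the FL difference was -4.05 without FL replicate 1 and -2.27 without FL replicate 2. Fbxo15, an F-box protein and a classic reporter of OCT4 activity, rose with FL by 1.17 (adjusted p = 4.15e-06) and with C3+14 by 3.97 (adjusted p = 2.19e-11). It was 5996 and 5638 with mCherry, 14091 and 12225 with FL, 91117 and 91195 with C3+14 and 75845 and 79220 with C1C3a, and the FL difference was 0.44 under quantile normalization.

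In the LIN28 and let-7 pathway, 6 of 13 genes fell and 2 rose with FL against mCherry, beside 19.6% and 24.5% of all genes. The median difference was -0.95, beside 0.09. Against C1+14, 5 fell and 0 rose with FL, beside 18.4% and 21.5%, with a median of -0.76 beside 0.06. Trim71, a let-7 target and RNA-binding ubiquitin ligase, fell by 3.52 (SE 0.14, adjusted p = 2.11e-10), from 4596 and 4209 normalised reads to 345 and 425. The differences were -4.12 with C3+14, -3.35 with C1C3a, -2.62 with C1C3b and -1.09 with C1C3c, all called lower. Mycn, another let-7 target, fell with FL by 3.90 (SE 0.24, adjusted p = 1.81e-08), from 2158 and 2290 to 109 and 201, and with the other 5 constructs by 1.55 to 2.90. Dis3l2, the exonuclease that degrades let-7 precursors tailed after LIN28 binding, rose with FL by 1.04 (adjusted p = 1.73e-05), a call lost without FL replicate 1 (0.99) or mCherry replicate 1 (0.98) and under TMM scaling (0.88). Igf2bp2, an RNA-binding protein and let-7 target, rose by 1.22 (adjusted p = 2.14e-05 by limma), and by 0.99 under quantile normalization. Against C1+14, of the same kind of library, these FL differences were smaller. With 1 library left out they ran from 0.31 to 0.47 for Dis3l2 and from 0.40 to 0.76 for Igf2bp2. C1+14 itself exceeded mCherry by 0.57 to 0.73 and by 0.57 to 0.70 in such fits.

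In FGF signalling, 9 of 20 genes fell and 2 rose with FL against mCherry, beside 19.6% and 24.5% of all genes. The median difference was -0.99, beside 0.09. Against C1+14, 10 fell and 2 rose with FL, beside 18.4% and 21.5%, with a median of -1.07. Medians of the other constructs against mCherry ran from -0.75 in C1C3a to 0.26 in C1+14, with 0.07 in C3+14. The medium held kinase inhibitors in every group, and whether these genes follow FGF4 here was not tested. Dusp6, a phosphatase of ERK and a feedback target of the pathway, fell with FL by 3.56 (SE 0.40, adjusted p = 5.34e-06 by limma). It went from 195 and 190 normalised reads to 8.84 and 26.2 (-2.83 without FL replicate 1 and -4.30 without FL replicate 2). C3+14, whose libraries are of the same kind as those of mCherry, had 355 and 384. Spry4, another feedback inhibitor, fell by 4.10 with FL (SE 0.62, adjusted p = 7.75e-05), from 155 and 169 to 14.7 and 4.76 (-4.82 without FL replicate 1 and -3.37 without FL replicate 2), and was also called lower with C3+14 (-4.02) and C1C3b (-4.07). Egr1, an immediate early gene induced by the pathway, rose with FL by 4.60 (SE 0.68, adjusted p = 6.77e-05), from 5.94 and 0 to 54.5 and 72.6, and with C3+14, C1C3a and C1C3b. The FL difference was 5.998 without mCherry replicate 1 and 3.20 without mCherry replicate 2. Spry4 and Egr1 thus lay on opposite sides of mCherry with FL, C3+14 and C1C3b. Of the 6 tested genes of the KH-domain family and the neighbourhood of Dppa5a, 0 were called with FL by limma. Of all genes, 19.6% were called lower and 24.5% higher. Against C1+14, 0 of the 6 were called with FL, beside 18.4% and 21.5%. With C1C3b, 3 were lower and 1 higher than with mCherry, beside 17.1% and 27.6%.

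Over the 14 libraries of the chimera table, the genes whose log2 levels followed Pou5f1 most closely among 11741 genes with a mean of at least 100 were Clta, Ftl1, Chchd2, Cdc37 and Sec61b, with Pearson's r from 0.967 to 0.970; 69.5% of the 50-base stretches of Ftl1 occur in other genes. For Sox2 they were Mtmr12 (r = 0.972), Cntn2 (0.959), Eif1a (0.955), Tet1 (0.954) and Bicral (0.946). Among the members themselves, r was 0.863 for Sox2 with Fgf4, 0.853 for Pou5f1 with Dppa5a, 0.786 for Lin28a with Fgf4, 0.648 for Sox2 with Lin28a and -0.464 for Pou5f1 with Sox2. The points are replicates of 7 groups that share size factors and library kinds, so these values only describe likeness.

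Exons of Pou5f1, Sall4 and Lin28a overlap exons of the antisense genes Gm19553, Gm14261 and Gm13061, whose reads were at most 3, 24 and 2 in any library. Whether the counting used strand is not given in the sources used here.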

How the data were processed

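Poly(A) RNA libraries of Dux-/- mouse embryonic stem cells (2 per group) were read from 2 tables that the authors scaled separately. Per the file headers and the values, the deposited signal is each gene's read count over a library-wide size factor: all 1220714 values (100%) were whole multiples of 1 step per column, within 0.001 reads, so whole reads were recovered. Per the submitters' processing notes the tools include Trim Galore 0.5.0, FastQC and DESeq2, with the build mm10; the aligner, counter and annotation are not given in the sources used here. Of 55487 gene identifiers, 55141 had a symbol in GENCODE M21. 1 read is worth 0.620 to 1.81 normalised reads.

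Differences are from limma 3.58.1 (R 4.3.3) on log2(value + 1) with a trend, over genes with at least 10 normalised reads in at least 2 libraries (21584 and 19833 genes), all groups of a table sharing 1 spread, with Benjamini-Hochberg adjustment over all genes. Folds on this scale understate changes of low genes. edgeR 4.0.16 and DESeq2 1.42.0 on recovered reads, other pseudocounts (0.1 and 8), filters, scalings, a replicate block and leaving out each library were alternatives. The fit was also run on simulated counts with the same spread setting for every gene and without the 2 kinds of library. That run therefore does not check the calls made on these libraries. The members, lists and tests were chosen with earlier results of these data known. From each list, the 2 genes with the largest rise and the 2 with the largest fall in FL against mCherry were named, if called, not overlapping between the groups and averaging 50 or more where higher, and the 5 genes most correlated with Pou5f1 and with Sox2 among those averaging 100 or more over all libraries; Sox2ot and Pou2f2 are named outside this rule. One gene that the rule names is not reported here. Replicates differed by a chi-square of 3.55 to 89.1 per gene, so none agreed within sampling noise.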

Additional observations from a re-analysis of the deposited data

How the results depend on the processing

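Each result was recomputed under up to 14 alternatives. Of the list genes, 17 were called for C1+14 against mCherry, 11 in a fit of the compared groups only and 9 to 15 when 1 library was left out. For C1C3c against mCherry the number was 31, 19 in the compared groups only and 19 to 36 with 1 library left out. For C1C3c against C1+14 it was 8, then 0 in the compared groups only, 5 with no filter and 2 to 15 with 1 library left out. For C12345delt14 against FL it was 2, then 12 with DESeq2, 8 in the compared groups only, 7 with edgeR, 0 with no filter, 1 and 8 with pseudocounts of 0.1 and 8, 5 with quantile normalization and 0 to 10 with 1 library left out. The interaction had 0, and 1 with DESeq2. With the replicate number as a block, C12345delt14 against FL had 1 list gene, and of the named genes it changed only the calls of Pou2f2 there and in C1C3b against C1+14. It moved no other count by over 1.5 times. Pearson's r of replicate differences between 2 groups ran from -0.10 to 0.05 in the chimera table. In the deletion table it was -0.57 for deltC12345+14 with deltC12345delt14, whose kinds of library are crossed. Other pairs there had r from -0.07 to 0.14. The replicate numbers therefore do not mark a pairing common to the groups. With crossed numbers for deltC12345+14 and deltC12345delt14, chosen after seeing the data, 0 list genes were called.

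Quantile normalization gives every library the same set of values and does not keep ratios within a library. The log2 ratio of Pou5f1 to Sox2 went from 3.50 to 2.54 for FL against mCherry, from 2.24 to 1.71 for C3+14 and from 1.84 to 1.16 for C1C3a. Against C1+14 it went from 2.86 to 1.90 for FL and from 1.20 to 0.52 for C1C3a, and against FL from -3.54 to -2.71 for deltC12345+14 and from -3.68 to -2.88 for deltC12345delt14. The median of all genes for FL against mCherry was 0.09 as deposited and -0.27 under quantile normalization, and the share of higher genes among those called was 55.5% and 41.2%. The same setting reversed Dppa5a for FL against C1+14 (-0.40) and Trim28 for FL against mCherry (-0.18), FL against C1+14 (-0.12), C1C3a against C1+14 (-0.39), deltC12345+14 against FL (0.24) and deltC12345delt14 against FL (0.21); the cause was not tested. Leaving out 1 library leaves a group with a lone library, assumed to vary like the others.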
